A study of Mus musculus with 6 samples.

Results

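The genes described here are those of epididymal white fat in male C57BL/6J mice fed a high-fat diet, chosen as genes whose level in fat lay well above the level in both the ileum and the liver. For each gene the higher of the ileum mean and the liver mean was subtracted from the fat mean on the log2 scale, and a gene with a difference of at least 2, which is 4 fold, was called a fat gene. There were 384 fat genes of 22180 genes measured (1.73%). By the same rule 945 genes stood out in the ileum (4.26%) and 432 in the liver (1.95%). In the BF group mice received barley flour rich in β-glucan, and in the control group cellulose, each at 5% dietary fiber in a lard-enriched diet with 50% of the energy from fat. Both groups were fed for 92 days and fasted before dissection. Equal amounts of RNA from 10 mice per group were mixed for each organ, so that each organ had 1 BF array and 1 control array, 6 arrays in all. The mice within a pool cannot be separated, no spread between mice is available, and neither the organ differences nor the diet differences were tested.

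White fat stores triglyceride in adipocytes, which take up fatty acids from circulating lipoproteins, coat the stored lipid with perilipins and release fatty acids again on hormonal signals. Adipocytes also secrete hormones such as leptin and adiponectin. The tissue further holds progenitors, fibroblasts, vessels and macrophages, and the epididymal depot lies against the epididymis, the duct in which sperm mature. In such bulk tissue fewer cells of a type and less RNA per cell cannot be told apart.

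The GEO labels call the fat samples adipocytes, while the methods of the study describe whole epididymal fat tissue. For the BF fat array the source label names cellulose, whereas its title, its description and its diet entry name barley, and the array was taken as BF. The 4 adipocyte markers were present on both fat arrays. Lep, the gene of leptin, stood at 11.75 on the BF array and 11.87 on the control array of fat, at 3.71 and 4.56 in the ileum and at 3.30 and 3.13 in the liver, and its difference of 7.68 was the largest value computed. The levels of Lep in the ileum and liver lay near or below the medians of their arrays, where signal cannot be told from background, so that such a difference gives no exact fold. Plin1, which coats the lipid droplet, stood at 10.20 and 9.83 in fat on the BF and control arrays, at 4.91 and 5.31 in the ileum and at 3.89 and 3.74 in the liver. Adipoq, the gene of adiponectin, stood at 9.97 and 9.91 in fat, at 4.71 and 5.76 in the ileum and at 2.82 and 2.70 in the liver. For these 3 genes both fat arrays lay above all 4 arrays of the other organs. Slc2a4, the insulin-regulated glucose transporter, stood at 7.70 and 7.12 in fat and at 5.75 and 5.83 in the ileum, and with a difference of 1.62 it was not a fat gene. Most markers of the other organs were low in fat. At a level of at least 5 on each fat array were 3 of 19 genes of ileum epithelium and 1 of 20 genes of hepatocytes. Of all probe sets 36.9% and 36.8% were at this level on the BF and control arrays of fat. The highest level on these arrays was 8.65 and 9.53 for ileum epithelium, and 10.81 and 10.29 for hepatocytes. The median difference was -7.50 for ileum epithelium and -8.06 for hepatocytes, and none of these genes was a fat gene.

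The sequences before the transcription starts of Lep and Adipoq are shown because these genes mark the tissue in both diets. They are the 250 bases upstream of the start, from RefSeq on build GRCm38.p6, for Lep chr6:29059971-29060220 and for Adipoq chr16:23146286-23146535, both on the plus strand. Capitals mark the TATA-like motif TATAA and the motif CCAAT, the other letters being lower case. Both strands were searched, so that a match on the minus strand reads ATTGG for CCAAT.
Lep: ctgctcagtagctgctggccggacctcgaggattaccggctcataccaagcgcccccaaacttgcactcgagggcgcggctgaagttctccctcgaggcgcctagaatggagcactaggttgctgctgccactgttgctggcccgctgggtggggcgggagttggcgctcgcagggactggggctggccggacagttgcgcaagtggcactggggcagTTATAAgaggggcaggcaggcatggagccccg
Adipoq: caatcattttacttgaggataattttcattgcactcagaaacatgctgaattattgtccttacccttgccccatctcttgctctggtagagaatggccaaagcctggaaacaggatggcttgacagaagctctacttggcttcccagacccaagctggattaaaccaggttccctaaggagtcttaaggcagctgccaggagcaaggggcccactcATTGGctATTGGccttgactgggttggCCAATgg
Lep held TATAA on both strands, overlapping in TTATAA, and Adipoq held 3 CCAAT matches. Upstream windows were found for 221 of the 290 fat genes that passed the threshold in both diets, 275 windows in all. TATAA was in 22.9% of them, against 22.8% of the 32851 windows of the genome, and CCAAT was in 33.8%, against 33.8%. AGGTCA, a core element of nuclear receptors such as PPARγ, was in 11.3% of the windows of these fat genes, against 14.0% of all. The motif shares of the fat genes lay close to or below the shares of all windows. Among the 20611 windows of genes measured, TATAA was in 20.3%, CCAAT in 34.8% and AGGTCA in 12.6%. Against these windows the TATAA share of the fat genes was the higher, and the shares were not tested.

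Most of the 384 fat genes coded for proteins. There were 362 protein-coding genes, 15 long non-coding RNAs, 4 microRNAs, 2 pseudogenes and 1 small nucleolar RNA. The median difference was 2.61, with 124 genes past 3, 51 past 4, 21 past 5 and 9 past 6. The median level was 7.92 in fat, against 4.79 in the ileum and 3.68 in the liver, and 331 fat genes had a fat mean of at least 6. The ileum was the nearer organ for 330 fat genes and the liver for 54. The median over all probe sets was also lower in the liver (3.40 on both arrays) than in fat (4.19 and 4.17 on the BF and control arrays) and in the ileum (4.39 and 4.42). Just inside the threshold lay Lama2 (2.00), Castor1 (2.01) and Lamb2 (2.02), and just outside lay Ttc7b (1.997), Aifm2 (1.99) and Tek (1.99). Of the 384 genes, 29 had several probe sets, and in 16 of these another probe set lay under 2.

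**Figure D1:**
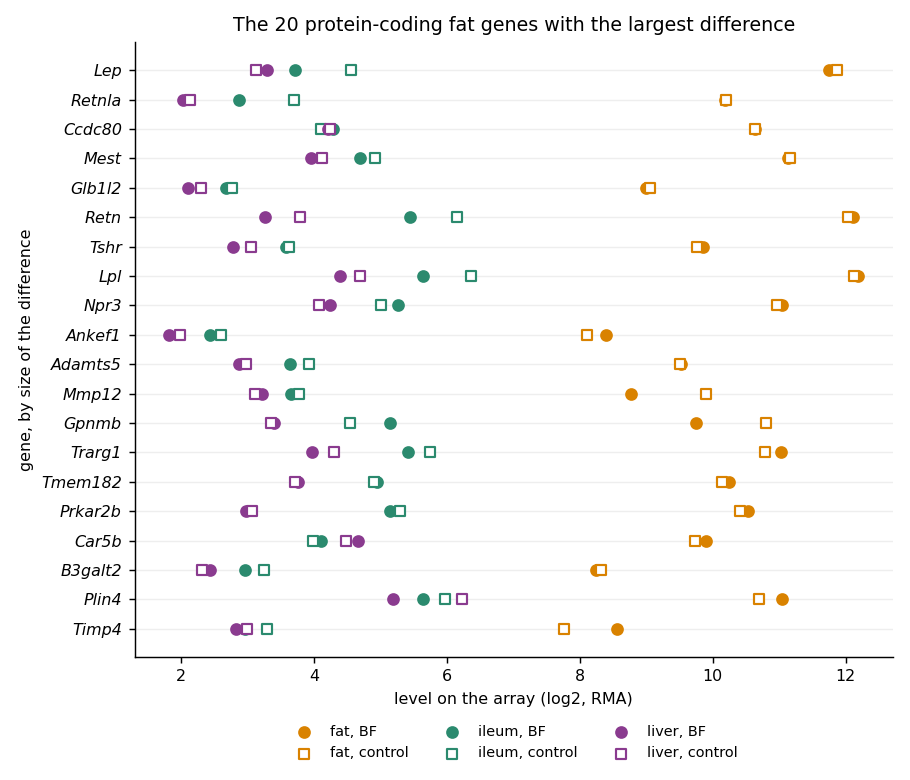
Level on each of the 6 arrays (x axis, log2) of the 20 protein-coding fat genes with the largest difference (y axis), with filled circles for BF and open squares for control. All 20 genes lay higher on both fat arrays than on any ileum or liver array, and Mmp12 and Gpnmb showed the widest gap between the fat arrays.

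Among the 20 protein-coding genes with the largest differences were secreted factors, receptors and matrix genes. Retn, the gene of resistin, stood at 12.11 and 12.04 on the BF and control arrays of fat, against 5.44 and 6.15 in the ileum and 3.27 and 3.78 in the liver. Retnla, a related secreted protein, had a difference of 6.90, with 10.18 and 10.19 in fat and at most 3.70 elsewhere. For both genes the fat arrays were within 0.07 of each other. Ccdc80, a secreted matrix protein, had a difference of 6.41, and Mest, an imprinted gene known to follow the expansion of fat, one of 6.35. Glb1l2, a gene related to β-galactosidase, had a difference of 6.30, and Adamts5, a protease of matrix proteoglycans, one of 5.73. Timp4, an inhibitor of matrix proteases, stood at 8.55 and 7.76 in fat on the BF and control arrays, and its difference was 5.03. Car5b, a mitochondrial carbonic anhydrase (5.24), Tmem182 (5.27), B3galt2, a galactosyltransferase (5.18), and Ankef1 (5.73) completed this group with the genes described below. Ankef1, Ccdc80 and Lpl had another probe set, and its difference was 2.81 for Ankef1, 4.32 for Ccdc80 and 6.19 for Lpl.

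Genes of lipid uptake and caveolae, the membrane pits in which adipocytes are rich, held the largest share of fat genes among the lists. Of 17 measured members 14 were fat genes, and the median difference was 2.93, against -0.25 over all genes. Lpl, the lipase that frees fatty acids from lipoproteins, stood at 12.19 and 12.13 on the BF and control arrays of fat, at 5.65 and 6.37 in the ileum and at 4.39 and 4.69 in the liver. Fabp4, the fatty acid carrier of adipocytes, stood at 12.47 and 12.52 in fat, at 7.23 and 7.79 in the ileum and at 5.40 on both arrays of the liver. In both genes the control array of the ileum lay above its BF array. Cav1, the main caveolar protein, had a difference of 3.88 and its partner Cavin3 one of 3.53. Vldlr, a lipoprotein receptor, had a difference of 3.66. Aqp11, a water channel, was the lowest of the list at -2.87, with 5.40 and 5.66 in fat and 8.44 and 8.36 in the ileum.

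Of 16 genes of the droplet coat and of lipolysis, 5 were fat genes, with a median difference of 1.06. Plin4, a perilipin, stood at 11.05 and 10.70 on the BF and control arrays of fat, against 5.65 and 5.98 in the ileum and 5.20 and 6.22 in the liver. Cidec, which fuses droplets, stood at 12.17 and 12.06 in fat, against 7.43 and 7.55 in the ileum and 5.34 and 7.13 in the liver. Of the lipases on this list Pnpla2, which starts the hydrolysis of triglyceride, had a difference of 2.31, the hormone-sensitive lipase gene Lipe one of 1.86 and Mgll, the monoglyceride lipase, one of 1.58. Plin3 (-2.56), a perilipin found in many tissues, was highest in the ileum, while Fitm1 (-4.63), which promotes droplet formation, was highest in the liver at 8.89 and 9.31.

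Of 15 receptors and G proteins that set the rate of lipolysis, 6 were fat genes, with a median difference of 1.76. Tshr, the thyrotropin receptor, stood at 9.85 and 9.76 on the BF and control arrays of fat, at 3.58 and 3.62 in the ileum and at 2.79 and 3.06 in the liver. Npr3, the clearance receptor of natriuretic peptides, stood at 11.05 and 10.97 in fat, at 5.26 and 5.02 in the ileum and at 4.24 and 4.07 in the liver. These genes kept a difference of nearly the same size in both diets, 6.27 in BF and 6.14 in control for Tshr, and 5.78 in BF and 5.95 in control for Npr3. Gnai1, an inhibitory G protein subunit, had a difference of 3.90 and Ptger3, a prostaglandin E2 receptor that couples to such subunits, one of 2.91. Hcar1, the lactate receptor that slows lipolysis, stood at 8.48 and 7.80 in fat, and its difference was 3.05 in BF and 2.04 in control. Prkar2b, the regulatory subunit of protein kinase A that is abundant in fat, had a difference of 5.25. Adcy6, an adenylyl cyclase, was the lowest of the list at -0.64.

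Of 12 measured genes of the adipokine list 6 were fat genes, with a median difference of 2.29. Besides Lep, Retn, Adipoq and Npr3, they were Sfrp5, a secreted Wnt inhibitor, with a difference of 4.97, and Nnat, an imprinted gene of a small membrane protein, with 3.27. The list was wider than secreted factors, since Npr3 is a receptor and Nnat a membrane protein. Rbp4, the retinol carrier of plasma, stood at 8.98 and 8.68 on the BF and control arrays of fat but at 11.60 and 11.57 in the liver, and its difference was -2.76.

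No gene of fatty acid and triglyceride synthesis was a fat gene. The median difference of the 23 genes measured was -0.20. Fasn, the fatty acid synthase, had the largest difference of this list at 1.53, with 11.37 and 11.26 on the BF and control arrays of fat, 8.34 and 8.29 in the ileum and 9.65 and 9.93 in the liver. Mogat1, an acyltransferase, followed with 1.45. Both fat arrays thus lay above the other organs for Fasn, but by less than 4 fold. Mogat2, the acyltransferase of the intestine, was lowest at -2.93. Of 18 genes of the insulin response and glucose uptake, Trarg1, a protein that travels with the insulin-regulated glucose transporter, was the only fat gene. It stood at 11.04 and 10.79 in fat, at 5.42 and 5.74 in the ileum and at 3.97 and 4.30 in the liver. The list had a median difference of 0.37, and Hk2, a hexokinase, was lowest at -1.11.

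Of 23 adipogenic transcription factors 3 were fat genes, a larger share than the 1.73% of all genes, and the median difference was 0.25. Pparg, the master regulator of adipocytes, stood at 9.48 and 9.27 on the BF and control arrays of fat, at 5.49 and 5.99 in the ileum and at 5.92 and 6.47 in the liver, a difference of 3.18. Ebf1 (2.98) and Ebf2 (2.92), which act early in the adipocyte lineage, were the others. Klf5 was far below, at -6.34, since it stood at 10.93 and 11.03 in the ileum. Of 21 developmental genes that distinguish fat depots, Meox2 (2.75) and Hoxc8 (2.12), both homeobox genes, were fat genes. Meox2 stood at 7.05 in BF fat and 6.29 in control fat.

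Of 12 brown and beige fat genes, only Cox8b, a subunit of cytochrome oxidase in muscle and brown fat, was a fat gene, at 5.31 and 5.62 on the BF and control arrays of fat (difference 2.25). Ucp1, the uncoupling protein that defines brown fat, stood at 3.47 and 3.39 in fat and at 3.44 on both arrays of the ileum. The Ucp1 level in fat was below the median of all probe sets on both fat arrays.

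**Figure D2:**
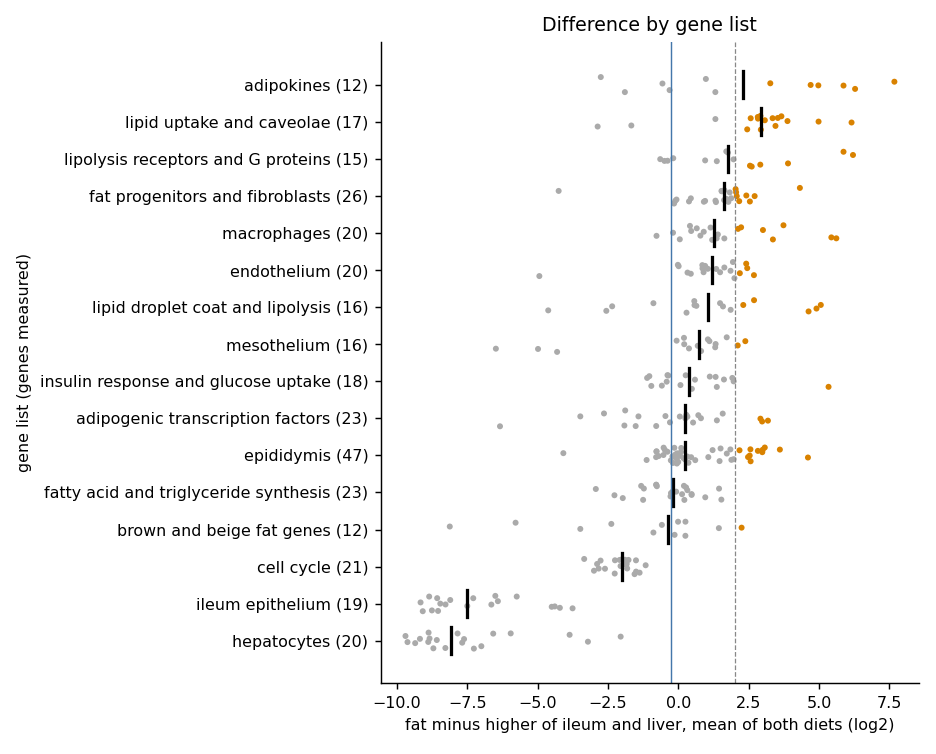
Difference of each measured gene (x axis, log2, fat minus the higher of ileum and liver, mean of both diets) in 16 gene lists (y axis, number measured in brackets), with fat genes in orange, list medians as black bars, the threshold of 2 as a dashed line and the median of all genes, -0.25, as a blue line. The median was highest for lipid uptake and caveolae (2.93) and lowest for hepatocytes (-8.06).

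Genes of the other cells of the tissue were also among the fat genes. Of 26 genes of progenitors and fibroblasts, 8 were fat genes, with a median difference of 1.63. Mfap5, a protein of elastic microfibrils, stood at 8.54 and 9.05 on the BF and control arrays of fat, against 4.44 and 4.51 in the ileum and 3.34 and 3.54 in the liver. Cd34, a surface protein of progenitors and vessels, had a difference of 2.71, and Cd248, a stromal surface protein, one of 2.54. Dpp4, a progenitor marker of fat that is also an enzyme of the intestinal brush border, stood at 6.89 and 6.86 in fat but at 11.16 and 11.11 in the ileum.

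Of 20 macrophage genes 7 were fat genes, with a median difference of 1.28. Mmp12, the macrophage elastase, stood at 8.77 and 9.90 on the BF and control arrays of fat, and between 3.11 and 3.78 on the other 4 arrays. Gpnmb, a glycoprotein of lipid-laden macrophages, stood at 9.75 and 10.81 in fat, at 5.14 and 4.54 in the ileum and at 3.41 and 3.36 in the liver. Cd68, a lysosomal protein of macrophages, stood at 10.02 and 10.88 in fat, at 6.74 and 6.68 in the ileum and at 6.61 and 6.57 in the liver. For these 3 genes the BF array of fat lay below the control array of fat, and both lay above the other organs. Ccr2, a chemokine receptor of monocytes, had a difference of 3.36 and Trem2, a lipid-sensing receptor, one of 3.01. Cd9, a tetraspanin that the ileum also expresses, was lowest at -0.78.

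Of 20 endothelial genes 4 were fat genes. They were Rgcc (2.68), Gpihbp1 (2.45), which carries lipoprotein lipase to the vessel lumen, Esam (2.41), an adhesion molecule of endothelial junctions, and Cdh5 (2.18), the cadherin of these junctions. Of 16 mesothelial genes 2 were fat genes, the secreted proteins Efemp1 (2.38) and Igfbp5 (2.11). Il7r (2.24), a cytokine receptor, was the only fat gene of 17 T and NK cell genes, and no gene of 11 for B and plasma cells was a fat gene. S100a8 (2.79) was the only one of 10 neutrophil genes, while its partner S100a9 had a difference of 0.25. The proteases Cpa3 (2.30) and Tpsb2 (2.17) were the fat genes of 10 for mast cells. Mcam (2.60), an adhesion molecule, was the only fat gene of 14 for pericytes and smooth muscle, and Myl1 (2.44), a myosin light chain, the only one of 15 for skeletal muscle. No gene of 21 of the cell cycle was a fat gene, and their median difference was -2.01.

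Several non-coding RNAs stood out in fat. The long non-coding RNA 1700047G03Rik stood at 9.69 and 10.07 on the BF and control arrays of fat and had a difference of 6.57. Its function is not described in the sources used here. The 4 microRNA genes among the fat genes are shown with their mature sequences from RefSeq on build GRCm38.p6, because the seed, bases 2 to 8 in capitals, sets which messages a microRNA pairs with. No 2 of them shared a seed. The probe sets do not separate the arms, or the mature form from the hairpin.
mmu-miR-101c: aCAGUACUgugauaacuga
mmu-miR-708-5p: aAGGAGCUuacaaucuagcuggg
mmu-miR-708-3p: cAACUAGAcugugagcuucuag
mmu-miR-701-5p: uUAGCCGCugaaauagaugga
mmu-miR-701-3p: uAUCUAUUaaagaggcuagc
mmu-miR-342-5p: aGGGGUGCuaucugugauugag
mmu-miR-342-3p: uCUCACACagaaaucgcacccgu
Mir101c stood at 7.14 and 6.83 on the BF and control arrays of fat, at 3.38 and 3.43 in the ileum and at 2.34 and 2.13 in the liver, a difference of 3.58. Mir708 stood at 6.13 and 5.56 in fat, at 2.36 and 2.29 in the ileum and at 2.22 on both arrays of the liver, a difference of 3.52. It lies within Tenm4, a transmembrane protein gene with a difference of 4.75, so that the microRNA and its host gene both stood out in fat. Mir701 (2.22) lies within Ttc28 (1.05), and Mir342 (2.17) within Evl (1.14), and neither host gene was a fat gene. Mir335, chosen after its value was seen, lies within Mest but had a difference of -0.70.

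The rule was then applied to the 3 BF arrays and to the 3 control arrays alone, to find which fat genes depended on 1 of the diets. Of the 384 fat genes, 290 passed the threshold of 2 in both diets, 36 in BF only and 58 in control only. The difference changed by less than 0.5 between the diets for 227 fat genes (59.1%). It was larger in BF for 206 and larger in control for 178. A change of more than 1 was seen for 13 genes with the larger difference in BF and for 46 with the larger difference in control. In 127 fat genes the reference organ moved more between the diets than fat itself. Among the 34 fat genes with adipocyte roles, which come from the 6 lists of adipokines, droplets, uptake, insulin response, receptors and transcription factors, the difference was larger in BF for 30. The median of BF minus control in these 34 genes was 0.23 in fat and -0.19 in the ileum, and 25 of them were lower on the BF array of the ileum than on its control array. Adipoq is an example, with a difference of 5.26 in BF and 4.14 in control while the fat arrays lay only 0.07 apart. The sum of the 4 adipocyte markers on the linear scale was 123 on the BF array and 175 on the control array of the ileum, and the part of adipose tissue on the ileum in these values was not tested.

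**Figure D3:**
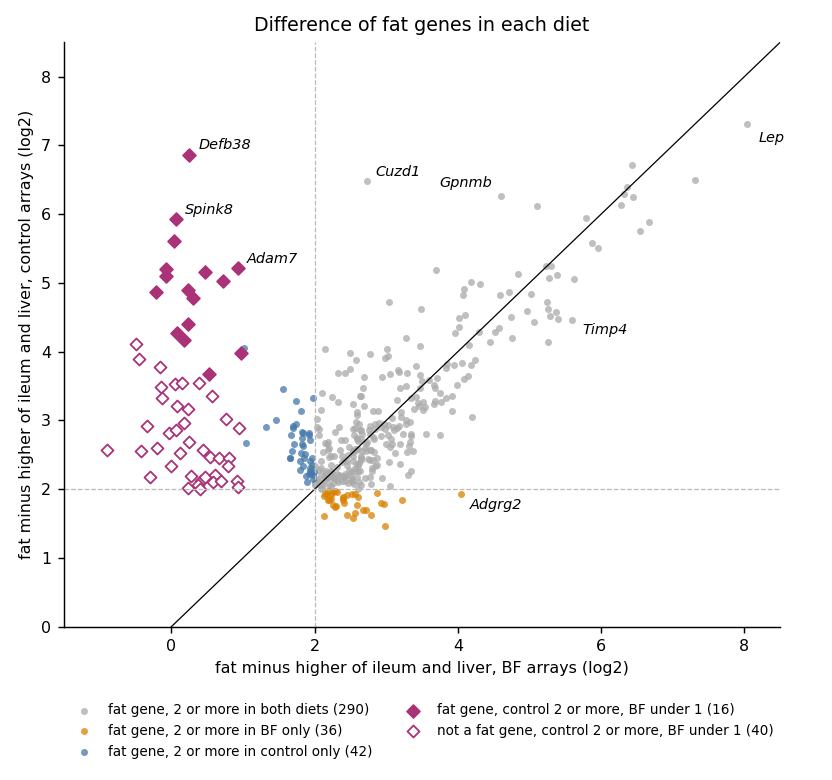
Difference in the BF arrays (x axis, log2) against the difference in the control arrays (y axis, log2) for the 384 fat genes, coloured by the diets in which they passed 2 (dashed lines), and for 40 further genes past 2 in control and under 1 in BF (open diamonds), with equal values on the black line. Most points lie near the line, and a separate column of diamonds with differences in BF under 1 reaches 6.86 in control for Defb38.

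The widest diet dependence was sought among genes past 2 in one diet and under 1 in the other. There were 56 such genes for control (0.252% of all genes) and 4 for BF (0.018%). Since the fat mean is taken over both diets, 16 of the 56 control genes and none of the 4 BF genes were among the 384 fat genes. Over the 56 genes the median level was 3.42 on the BF array and 7.04 on the control array of fat, against 3.22 and 3.12 in the ileum and 2.53 and 2.52 in the liver. The high control array of fat follows from the choice of these genes, so that these levels are a description.

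Many of these genes are known from the epididymis. Of 47 epididymis genes in the list written for this purpose, 11 were fat genes and 15 were among the 56. Over all genes the shares were 1.73% and 0.252%. The list was written with earlier results of these data known, so that its counts are a description. Defb38, a beta-defensin, that is, a small antimicrobial peptide of epithelia, stood at 2.23 on the BF array and 8.71 on the control array of fat. On the 4 other arrays it stood between 1.53 and 1.99. Spink8, a Kazal-type protease inhibitor, stood at 3.26 and 9.50 in fat on the BF and control arrays, and at most at 3.57 elsewhere. Defb23 stood at 3.82 and 9.59 in fat, at 3.78 and 3.98 in the ileum and at 2.62 and 2.66 in the liver. On the BF array these 3 genes lay within 0.25 of the higher of ileum and liver. Defb22 (2.64 in BF fat and 7.95 in control fat), Defb39 (2.49 and 7.16) and Defb11 (2.50 and 7.03) showed the same pattern. So did Spint4 (2.30 and 7.56), a Kunitz-type protease inhibitor, Ces5a (3.16 and 8.32), a carboxylesterase, Serpina1f (3.67 and 8.15), a serpin, and Glb1l3 (2.81 and 7.49). Adam7, a membrane protein of the epididymis, stood at 4.17 in BF fat and 8.47 in control fat. Cuzd1 also differed, with 6.34 in BF fat and 10.08 in control fat, but its difference was past 2 in both diets, at 2.73 in BF and 6.48 in control.

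**Figure D4:**
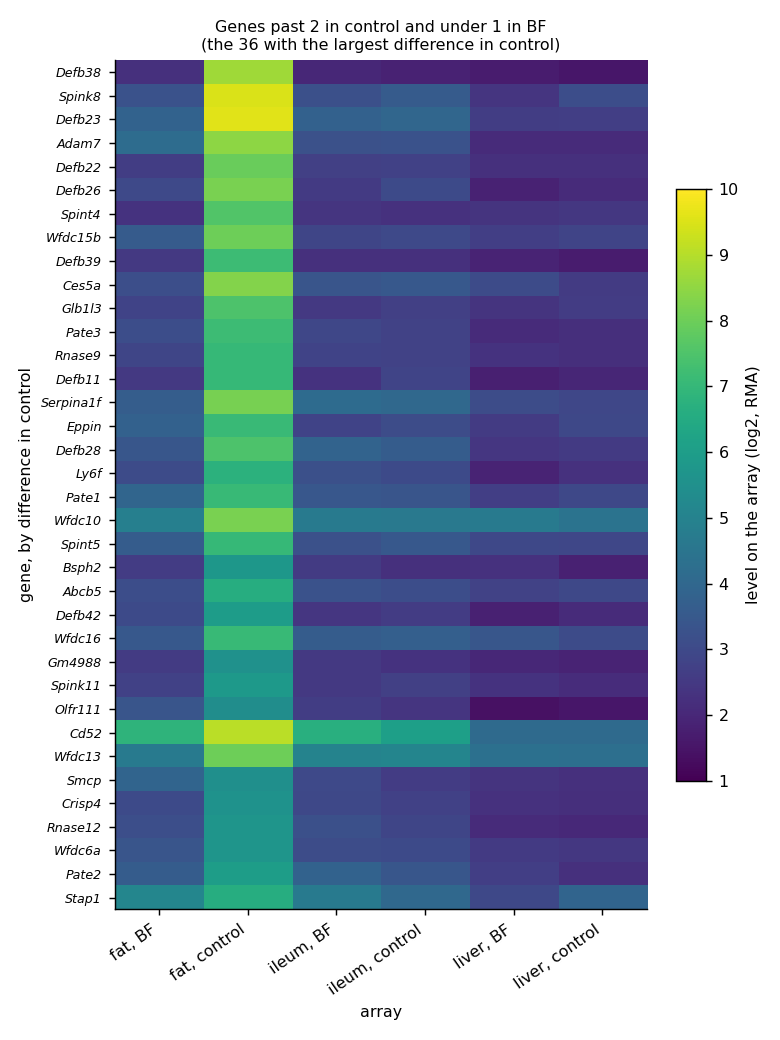
Level on the 6 arrays (columns, log2 as colour) of 36 genes past 2 in control and under 1 in BF (rows, by the difference in control). The control array of fat is the bright column for nearly all rows, while Cd52 also has levels above 6 on the BF array of fat and on both ileum arrays.

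Members of several gene families were among the 56. Of 42 beta-defensin genes measured, 10 were among the 56. At a level of at least 5 were 0 of the 42 on the BF array and 10 on the control array of fat, against 36.9% and 36.8% of all probe sets on these arrays. The 10 genes at this level included Defb29 and Defb43, which were not among the 56, and left out Defb37 and Defb40, which were. Of 18 Wfdc genes, which code for whey acidic protein-type inhibitors, 7 were among the 56. Of 12 Pate genes, which code for small proteins of the male tract, 3 were among them, and of 5 Spint genes 2. All 56 genes were placed on build GRCm38.p6, and 16 lay on chromosome 2, which holds 8.40% of all genes. In the order of protein-coding genes 26 of the 56 fell into 7 runs of neighbours. The longest run was on chromosome 2 and held Wfdc6a, Eppin, Wfdc8, Wfdc16, Wfdc9, Wfdc10, Wfdc13, Spint4 and Spint5, which are 9 of 11 genes in a row. A run of 4 was Defb40, Defb37, Defb38 and Defb39 on chromosome 8, another was Defb23, Defb22, Defb26 and Defb28 on chromosome 2, and Pate2, Pate3 and Pate1 were neighbours on chromosome 9. Probe sets of such related genes may share target sequence, which was not examined.

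The 250 bases upstream of Defb23 and Defb38, from RefSeq on build GRCm38.p6, are shown because they belong to the genes with the widest gap between the fat arrays. Defb23 lies at chr2:152464621-152464870 and Defb38 at chr8:19026569-19026818, both on the minus strand. Capitals mark the motif TATAA, the motif CCAAT and the motif AGAACA, the core element of androgen and glucocorticoid receptors, on either strand.
Defb23: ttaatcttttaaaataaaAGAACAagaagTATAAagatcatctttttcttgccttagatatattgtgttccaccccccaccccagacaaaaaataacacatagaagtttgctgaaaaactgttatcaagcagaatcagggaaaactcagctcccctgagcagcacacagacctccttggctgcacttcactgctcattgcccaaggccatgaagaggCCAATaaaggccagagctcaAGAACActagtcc
Defb38: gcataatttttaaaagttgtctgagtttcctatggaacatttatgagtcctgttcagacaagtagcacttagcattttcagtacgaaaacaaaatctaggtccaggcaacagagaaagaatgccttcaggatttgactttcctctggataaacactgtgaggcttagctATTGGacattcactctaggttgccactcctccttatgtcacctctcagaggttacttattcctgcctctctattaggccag
Defb23 held 1 match to TATAA, 1 match to CCAAT and 2 matches to AGAACA, and Defb38 held 1 CCAAT match. Windows were found for 46 of the 56 genes, 50 windows in all. CCAAT was in 25 of the 50, against 33.8% of all windows, TATAA in 16, against 22.8%, and AGAACA in 13, against 16.1%. AGGTCA was in 12 of the 50, against 14.0% of all windows. These shares were not tested, and neighbouring genes of a family share ancestry.

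The remaining genes of the 56 included genes of leukocytes, named here after their values were seen. Cd52, a surface glycoprotein of leukocytes, stood at 6.85 on the BF array and 9.06 on the control array of fat, with 6.67 and 6.09 in the ileum. Itgax, an integrin of dendritic cells and of macrophages in obese fat, stood at 7.15 and 8.39 in fat and at 6.34 and 5.94 in the ileum. Clec7a, the β-glucan receptor dectin-1 of myeloid cells, stood at 6.59 and 7.76 in fat and at 6.19 and 5.76 in the ileum. Unlike the defensins, these genes were well above 5 on both fat arrays. On the BF arrays the ileum lay close below fat, by 0.18 for Cd52, 0.81 for Itgax and 0.40 for Clec7a. On the control arrays it lay below fat by 2.96, 2.46 and 2.00. There were 11 genes of the 56 with a level of at least 5 on the BF array of fat. The sum of the 20 macrophage genes on the linear scale was 5411 on the BF array and 10070 on the control array of fat, and their part in these differences was not tested.

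The sum of the 47 epididymis genes on the linear scale was 2391 on the BF array of fat and 6607 on the control array of fat, against 1016 and 905 in the ileum and 628 and 579 in the liver. The highest member stood at 10.51 on the BF array and 10.60 on the control array of fat. A single gene thus made a large part of the sum on the BF array. The median of the list was 3.26 on the BF array and 4.22 on the control array of fat, and the median of BF minus control was -0.53, against 0.01 over all genes. At least 5 on the log2 scale were 4 of the 47 genes on the BF array and 18 on the control array of fat, while of all probe sets 36.9% and 36.8% were at this level on these arrays. Some members, such as Cst11 (2.31 in BF fat and 2.23 in control fat) and Lcn10 (3.57 and 3.37), were low on both. Smcp, a sperm gene, stood at 3.91 in BF fat and 5.48 in control fat. Of the 11 testis and sperm genes measured, 3 were below 0.77 fold in BF fat, against 6.16% of all genes. Above 1.3 fold was 1, against 6.67% of all genes. Most of the 11 were low, with 7 below the median of the BF array and 6 below that of the control array of fat. The median of BF minus control over these 11 genes was -0.18. Whether epididymal tissue was collected with the fat was not tested, and with pooled RNA the number of mice behind these values cannot be told. Without the epididymis, sperm and ciliated cell lists and the Defb, Wfdc, Spint and Pate families, an alternative chosen after seeing the data, 366 fat genes remained, 43 of them in control only, and 27 genes were past 2 in control and under 1 in BF.

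The 4 genes past 2 in BF and under 1 in control were Cdhr3, Lcn2, Lrrc36 and Mir186. Cdhr3, a cadherin of ciliated cells, stood at 6.14 on the BF array and 4.13 on the control array of fat, and between 3.05 and 3.83 elsewhere. Lcn2, the gene of lipocalin 2, stood at 7.63 and 6.69 in fat. In the liver it stood at 5.13 on the BF array and lay 3.88 above this on the control array, so that its reference changed more than its level in fat. Lrrc36 stood at 5.62 in BF fat and 4.38 in control fat. Mir186 stood at 5.02 and 2.82 in fat, while its host gene Zranb2 stood at 6.94 and 7.15. Among the 384 fat genes, those higher in BF fat included Adgrg2, an adhesion receptor known from the epididymis and its efferent ducts, at 8.34 in BF fat and 6.22 in control fat. It was 4.33 fold higher in BF, while 25 of the 47 epididymis genes were below 0.77 fold, against 6.16% of all genes. Of 22 genes of multiciliated cells none was a fat gene. In BF fat 12 of the 22 were above 1.3 fold, against 6.67% of all genes, and none was below 0.77 fold. Most were low, with 5 at a level of at least 5 on the BF array and 1 on the control array of fat. Below the medians of these arrays lay 7 and 16. The sum of the 22 genes was 698 on the BF array and 503 on the control array of fat. Their part in the Adgrg2 and Cdhr3 values was not tested.

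Within fat, BF was compared with control at the fold thresholds of the study. Of the 384 fat genes, 55 were above 1.3 fold in BF (14.3%), against 6.67% of all genes. Below 0.77 fold were 101 (26.3%), against 6.16% of all genes. Since these fat values also entered the rule, the shares are a description. The median of BF minus control was 0.02 for the fat genes and 0.01 for all genes. The lower side had a group apart: 18 fat genes were lower in BF by 2.87 or more, all of them genes past 2 in control and under 1 in BF except Cuzd1 and Defb43, and the nearest other fat gene was lower by 1.58.

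**Figure D5:**
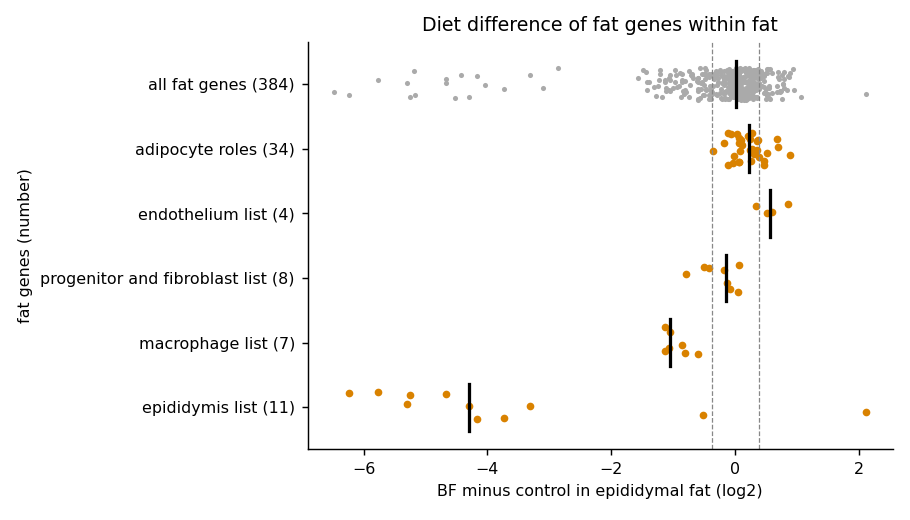
BF minus control in epididymal fat (x axis, log2) for all 384 fat genes and for fat genes of 5 roles (y axis, number in brackets), with medians as black bars and the thresholds of 1.3 fold and 0.77 fold as dashed lines. The medians were 0.23 for adipocyte roles, 0.55 for endothelium, -0.16 for progenitors and fibroblasts, -1.05 for macrophages and -4.30 for the 11 fat genes of the epididymis list, against -0.53 over all 47 measured genes of that list.

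The median diet difference within fat varied among the roles, and these differences between roles were not tested. For comparison, 6.67% of all genes and 14.3% of all fat genes were above 1.3 fold in BF fat. Below 0.77 fold were 6.16% of all genes and 26.3% of all fat genes. Of the 34 fat genes with adipocyte roles, 6 were above 1.3 fold in BF and none was below 0.77 fold, with a median of 0.23. Lep (-0.12), Retn (0.07), Lpl (0.06) and Fabp4 (-0.04) were nearly level between the fat arrays. Nnat was 1.84 fold higher in BF, at 9.26 in BF fat and 8.38 in control fat, and its other probe set stood at 7.69 and 6.86. All 7 macrophage fat genes were below 0.77 fold, with a median of -1.05, and of the 20 macrophage genes measured 18 were below it, with a median of -0.86. Mmp12 was 2.20 fold and Gpnmb 2.09 fold lower in BF. Of the 4 endothelial fat genes 3 were above 1.3 fold, and of all 20 endothelial genes 15, with a median of 0.60. Esam stood at 7.55 in BF fat and 6.69 in control fat.

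The other fat genes with the largest shift towards BF came from several roles. Chst1, a sulfotransferase, stood at 8.77 on the BF array and 7.84 on the control array of fat, 1.90 fold higher. Orm3, an acute-phase protein gene, stood at 6.25 in BF fat and 5.19 in control fat. Cd300lg, a receptor of capillary endothelium, stood at 8.52 in BF fat and 7.65 in control fat, Hspa12b, a heat shock protein of endothelial cells, at 7.03 and 6.20, and Kank3, an endothelial scaffold protein, at 8.06 and 7.27. Timp4 (1.73 fold) and Apcdd1 (1.70 fold), a Wnt inhibitor, were also higher. Of the 36 fat genes in BF only, 20 were above 1.3 fold in BF fat. Of the 58 in control only, 50 were below 0.77 fold. The fat value of each diet entered these classes, so that the direction follows largely from the choice of the genes.

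In the other organs fewer fat genes lay past the diet thresholds than in fat. The rule chose these genes by high values in fat and lower values in the other organs, so that this contrast is a description. In the ileum 29 were above 1.3 fold in BF (7.55%), against 4.27% of all genes, and 30 were below 0.77 fold (7.81%), against 3.88%. In the liver 21 were above (5.47%), against 6.11%, and 36 were below (9.38%), against 5.97%. Past a threshold in the same direction in fat and in another organ were 23 fat genes, and past thresholds in opposite directions were 25. The matching counts over all genes were not made, so that both counts are a description. Lep was level in fat but lower by 0.85 on the BF array of the ileum. There it stood at 3.71 in BF and 4.56 in control, below or near the median of the array. Plin4 was lower by 1.03 in the BF liver, at 5.20 in BF and 6.22 in control.

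The sizes depended on how the arrays were scaled. After quantile normalization of the 6 arrays there were 445 fat genes, and 338 of the 384 were kept. After centring each array on its median there were 363, and 312 were kept, while the median difference of all genes moved by -0.15. In both cases the genes past 2 in control and under 1 in BF numbered 50 and 51, of which 44 and 45 were among the 56.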

How the data were processed

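Total RNA of the ileum, liver and epididymal fat was pooled from 10 mice per diet group, and 100 ng of each pool was run on 1 Mouse Gene 2.0 ST array. The authors processed the arrays by robust multichip analysis with default parameters in Expression Console 1.3, and the deposited values are log2 expression levels of 41345 probe sets. Which arrays were normalized together is not given in the sources used here. No detection calls were used, so low values cannot be told from background.

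Of the probe sets, 23521 carried exactly 1 gene symbol in the platform table, 1820 carried several and 16004 were not listed. Symbols were updated through the gene number for 23328. For each of 22180 genes the probe set whose mean over all 6 arrays was highest was kept. Differences were computed as described with Python 3.11.15, NumPy 2.4.6 and pandas 2.3.3, and figures were drawn with Matplotlib 3.10.9. The rule and the thresholds of 2 and 1 were applied to the mean of both diets and to each diet. Diet differences used the thresholds of 1.3 and 0.77 fold of the study's methods. The calculation was checked on simulated arrays, all built from the ileum means, with known differences added to fat. These arrays held no other differences between organs or in scale, so that the check covers the calculation only. Nothing was tested, because each diet had 1 array per organ and the organ contrast chose the members, and the precision is limited by the number of arrays.

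The members and the 27 gene lists were chosen with earlier results of these data known. Named genes were the 20 protein-coding fat genes with the largest differences, the 10 furthest each way by diet within fat, the 10 furthest each way among genes past 2 in 1 diet and under 1 in the other, list members with the highest and lowest differences (up to 6 a list), the 4 markers and the genes next to the threshold. Other genes were named after their values were seen. Promoters and microRNAs came from RefSeq (GRCm38.p6). The alternatives were quantile normalization, median centring, other probe set rules, filters on level, protein-coding genes only, the mean of ileum and liver as reference and other thresholds. The scanner files and the other measurements of the study were not used here.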

Additional observations from a re-analysis of the deposited data

Results flagged for a closer look

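Of 45 genes named as markers or for the size of their organ or diet difference, 5 were past a fold threshold one way in fat and past the opposite threshold in another organ. For 2 of these an array of each organ reached 5 on the log2 scale. Gpnmb, the glycoprotein of lipid-laden macrophages, had a BF minus control value of -1.06 in fat and of 0.60 in the ileum. Lcn2, the lipocalin gene, had 0.93 in fat and -3.88 in the liver. The other 3 genes stayed under 5 in the other organ. Hspa12b had 0.83 in fat and -0.71 in the ileum, Orm3 had 1.06 in fat and -0.84 in the liver, and Ces5a had -5.17 in fat and 0.48 in the liver. Each value compares 1 pooled array with 1 other, and the differences between the organs were not tested.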

How the results depend on the processing

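No paired analysis was possible because no result came from a test. The organ contrast chose the members, and its values are given within each diet in place of a test. Each diet had 1 array per organ, so that none could be left out of a group. With the mean of ileum and liver in place of the higher organ there were 781 fat genes, 624 of them in both diets and 70 in BF only, with 112 above 1.3 fold and 179 below 0.77 fold in BF fat. With a threshold of 1 there were 1298, with 1017 in both diets, 99 in BF only, 178 in control only, 186 above and 264 below in BF fat, and 32 genes past 1 in control and under 0 in BF. With a threshold of 3 there were 124, with 97, 11 and 16 in these classes, 16 above and 35 below, while 34 genes were past 3 in control and under 2 in BF, and 2 the other way. With the higher fat array at 6 or more, 2 genes were past 2 in BF and under 1 in control. At 1.5 fold 25 fat genes were higher in BF fat, and at 2 fold 2 were higher and 41 lower. Without the epididymal, sperm and ciliated cell genes, chosen after seeing the data, 27 genes were past 2 in control and under 1 in BF. The other counts stayed within 1.5 times under every alternative run. List medians and differences of named genes also moved. Besides Lcn2, 33 moved by more than the spread between the diets after quantile normalization and 38 did not. After centring 24 moved and 47 did not. The median of the adipogenic transcription factors, 0.25, became -0.10 after quantile normalization and -0.36 after centring. Slc2a4, at 1.62, reached 2.09 and 1.85. The difference of Lcn2, 0.10, turned to -0.37 after quantile normalization and -0.69 after centring, and the cause was not tested. Of the 41 named genes at 2 or more, 3 were under 2 after quantile normalization and 5 after centring.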

Other observations

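Imprinted genes were listed after Mest, Nnat and Plagl1 had been seen among the fat genes. Of 29 measured, 6 were fat genes (20.7%), against 1.73% of all genes. They were Mest (6.35), Nnat (3.27), Peg3 (2.99), Slc22a2 (2.41), Sgce (2.29) and Plagl1 (2.17). The count includes Mest, Nnat and Plagl1, which prompted the list, so that it is a description. Peg3 stood at 9.39 on both fat arrays, at 6.28 and 6.53 on the BF and control arrays of the ileum and at 4.95 and 4.88 in the liver. Plagl1 stood at 7.10 in BF fat and 6.39 in control fat. The median difference of the 29 genes was 0.07, and Slc38a4, a transporter of the liver, was lowest at -7.39.

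Among the 17824 probe sets without a single gene symbol, 197 had a difference of at least 2 (1.11%), and 11 were past 2 in control and under 1 in BF. These probe sets are unnamed here. Of the chromosomes with at least 100 genes measured, chromosome 15 had the largest share of fat genes (24 of 839, 2.86%) and chromosome 13 the smallest (7 of 858, 0.816%).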
